A study of Saccharomyces cerevisiae with 12 samples.

Results

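The interaction of LSMMG and generation asked, for each gene, whether the effect of low-shear modeled microgravity (LSMMG) at 25 generations differed from its effect at 5 generations. It was computed as a difference of differences, SMG 25 minus Ctrl 25 less SMG 5 minus Ctrl 5, on log2 ratios, so that a positive value means that LSMMG cells stood higher against their controls at 25 than at 5 generations. All 12 arrays of the series entered, 3 in each of 4 groups named by the sample titles, and 15 of 8968 probe sets tested were called, 14 of them for genes with a name among 5449 such genes. RNA came from the diploid Saccharomyces cerevisiae strain BY4743, grown in rich medium (YPD) at 30 °C in HARVs, rotating culture vessels filled with medium. SMG 5 and SMG 25 are cultures kept for 5 and 25 generations in LSMMG, modeled in HARVs in the vertical position, and Ctrl 5 and Ctrl 25 are cultures kept as long in horizontal HARVs. Cultures were held in log phase by serial dilution, which the study checked by glucose readings of the medium. Its mean readings were higher at 25 than at 5 generations in both kinds of culture. At 5 generations the mean reading was lower in LSMMG than in controls. The part of glucose in the interaction was not tested. The growth description of every array names 5 generations. The legend of the study's cluster figure names more control arrays at 5 than at 25 generations, so the split of the controls rests on the titles. Nothing states that the replicates were separate cultures, and p-values therefore measure the spread between these arrays.

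A gene can enter such an interaction in several ways. An early response may fade with continued culture, a response may build up, or cells in LSMMG and control cells may drift apart after starting together. Because control cultures also pass through the added generations, the same value arises when LSMMG cells stay still and control cells move. Yeast held in YPD ferments glucose and keeps genes of respiration, sporulation, anaerobic growth and mating low, and many of these genes answer to glucose, oxygen or cell type. A diploid such as BY4743 represses haploid and mating genes through the a1-alpha2 repressor.

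The deposited values are ratios of each probe set to its own typical level over the arrays, so levels of different genes could not be ranked, and the absence of the genes deleted in BY4743 could not be judged. Replicates agreed more closely in LSMMG than in controls. The median SD of log2 ratios was 0.0937 in SMG 5, 0.10 in SMG 25, 0.147 in Ctrl 25 and 0.199 in Ctrl 5. Ctrl 5 replicate 3 stood apart from its own group. Across named probe sets, which are not independent of each other, it correlated at 0.95 with Ctrl 25 replicate 3 and at 0.61 and 0.37 with Ctrl 5 replicates 1 and 2. Ctrl 25 replicates 1 and 2 carried high signal on the 17 control probe sets for rRNA, with medians of 97.1 and 96.2, against 2.43 on Ctrl 25 replicate 3 and 0.701 to 1.14 on the other arrays. The study left out a control array as aberrant, for low background expression, and it states neither which array that was nor whether it is among those analysed here. Counts of calls and the medians of gene lists are given with and without the arrays that stood apart below.

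**Figure D1:**
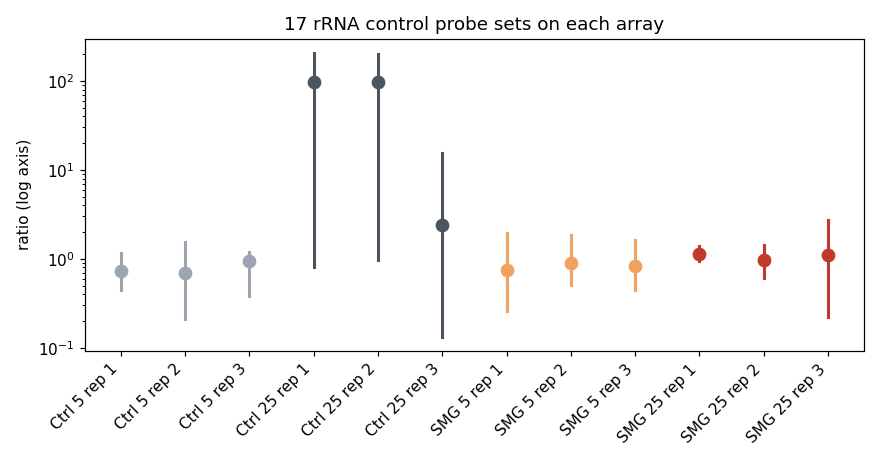
Ratios of the 17 rRNA control probe sets on each of the 12 arrays (log axis), with the median as a point and the lowest and highest probe set as the ends of the line. Ctrl 25 replicates 1 and 2 stand near 97, and the remaining arrays have medians between 0.701 and 2.43.

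Of the 8968 probe sets, 15 (0.167%) passed the interaction test at an adjusted p under 0.05 (limma, Benjamini-Hochberg over all probe sets tested). Among the 15, 7 were positive (0.0781%) and 8 negative (0.0892%). Arrays were not paired in this fit, and none passed with the replicate number as a block within each kind of HARV. At an unadjusted p under 0.05 the unpaired fit gave 1357 probe sets. The size of the 15 called lay between 0.91 and 1.66 on the log2 scale, and 12 of the 15 were at least 2-fold. For comparison, LSMMG against control was called for 33.5% of probe sets at 5 generations and 46% at 25 generations. Of the 2496 probe sets called at both times, 2486 had the same sign, 1596 of them with the larger size at 25 generations and 890 with the larger size at 5 generations. By sign and size of the fitted effects, the effect of LSMMG shrank in 4 of the 15 called probe sets, grew in 3 and changed sign in 8, of which only PFK27 and FET4 had both effects called. Between generations, 2.15% of probe sets were called within LSMMG and 0.134% within controls. Of the 15, 12 were called within LSMMG and 1 within controls, and since these comparisons use the same arrays as the interaction, the counts describe the 15 and lend them no support.

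**Figure D2:**
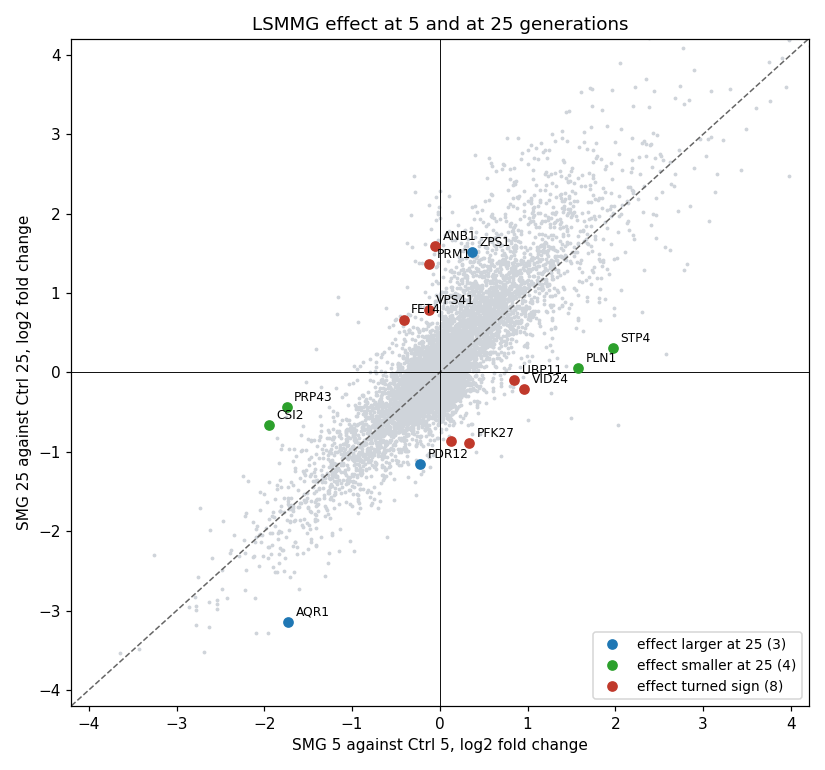
LSMMG effect at 25 generations (vertical axis) against that at 5 generations (horizontal axis), both as log2 fold changes, for all 8968 probe sets tested (grey, 9 of them beyond the axes at 4.2) and the 15 called (coloured by whether the effect grew, shrank or turned). On the dashed line both effects are equal, and STP4 and PLN1 lie far to its right while AQR1 lies below it.

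An early effect of LSMMG faded in STP4, PLN1, PRP43 and CSI2. STP4 (YDL048C), a zinc-finger protein related to the transcription factor Stp1, had ratios of 2.52, 2.67 and 2.51 in SMG 5 and 1.14, 1.10 and 1.04 in SMG 25, against 0.806, 0.528 and 0.662 in Ctrl 5 and 0.831, 0.961 and 0.858 in Ctrl 25. The SMG 5 arrays lay above every other array. The LSMMG effect was 1.97 at 5 generations (3.91-fold) and 0.31 at 25 generations (1.24-fold, adjusted p = 0.085), and the difference of -1.66 (SE 0.19, adjusted p = 0.012) was the largest of the 15 in size. PLN1 (YKR046C), the perilipin that coats lipid droplets, had ratios of 2.79, 2.80 and 2.54 in SMG 5 and 1.02, 0.944 and 0.985 in SMG 25. Its control ratios were 0.942, 0.847 and 0.943 in Ctrl 5 and 1.10, 1.02 and 0.759 in Ctrl 25, so that SMG 25 lay within the range of the controls. LSMMG raised PLN1 by 1.57 at 5 generations, the effect at 25 generations was 0.05 (adjusted p = 0.78), and the interaction was -1.52 (SE 0.18, adjusted p = 0.012).

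PRP43 and CSI2 followed the same course from below. PRP43 (YGL120C), a DEAH-box RNA helicase of spliceosome disassembly and ribosome assembly, had ratios of 0.410, 0.410 and 0.404 in SMG 5 and 0.874, 0.867 and 0.982 in SMG 25, and of 1.33, 1.19 and 1.62 in Ctrl 5 and 1.24, 1.02 and 1.47 in Ctrl 25. LSMMG arrays lay below control arrays at both times, but by less at 25 generations, where SMG 25 came close to the lowest control. The effect was -1.75 at 5 and -0.44 at 25 generations (adjusted p = 9.2e-06 and 0.027), an interaction of 1.31 (SE 0.20, adjusted p = 0.034). For CSI2 (YOL007C), a membrane protein linked to chitin synthesis, the ratios were 0.468, 0.453 and 0.448 in SMG 5 against 1.85, 1.98 and 1.48 in Ctrl 5. At 25 generations they were 0.776, 0.853 and 0.741 in SMG 25 against 1.39, 1.23 and 1.15 in Ctrl 25. Both kinds of culture moved toward each other, with no overlap between LSMMG and control at either time. The effect of -1.94 at 5 generations became -0.67 at 25 generations, and the interaction was 1.28 (SE 0.17, adjusted p = 0.018).

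The effect of LSMMG grew in AQR1, PDR12 and ZPS1, of which AQR1 and PDR12 encode exporters that remove acids from the cell. AQR1 (YNL065W), a plasma membrane transporter that gives resistance to short-chain monocarboxylic acids, had ratios of 0.558, 0.554 and 0.485 in SMG 5 and 0.280, 0.295 and 0.224 in SMG 25. In controls it stood at 1.88, 1.46 and 1.99 in Ctrl 5 and 2.5, 2.53 and 2.01 in Ctrl 25. The 4 groups did not overlap, and the gap between LSMMG and control widened from both sides. LSMMG lowered AQR1 to 0.302 of Ctrl 5 and to 0.113 of Ctrl 25, log2 effects of -1.73 and -3.14, with an interaction of -1.41 (SE 0.21, adjusted p = 0.029). PDR12 (YPL058C), the ABC transporter that pumps out weak acids such as sorbate and benzoate, had ratios of 0.951, 0.862 and 0.970 in SMG 5 and 0.569, 0.581 and 0.573 in SMG 25. The control ratios were 1.15, 1.09 and 1.03 in Ctrl 5 and 1.39, 1.33 and 1.14 in Ctrl 25, which overlapped each other. PDR12 had an effect of -0.23 at 5 generations (adjusted p = 0.088) and was lower in LSMMG by -1.16 at 25 generations (adjusted p = 9.1e-06), and the interaction was -0.93 (SE 0.13, adjusted p = 0.025).

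ZPS1 (YOL154W), a surface protein whose gene is a target of the zinc-responsive activator Zap1, had ratios of 1.21, 1.08 and 1.10 in SMG 5 and 2.02, 1.97 and 2.02 in SMG 25. The controls ran the other way, from 0.913, 0.893 and 0.814 in Ctrl 5 to 0.786, 0.619 and 0.708 in Ctrl 25. No 2 of the groups overlapped, and the SMG 25 arrays were the highest. The LSMMG effect was 1.29-fold at 5 generations and 2.86-fold at 25 generations, and the interaction was 1.14 (SE 0.14, adjusted p = 0.013).

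The sign of the LSMMG effect went from positive to negative in PFK27, VID24 and UBP11. PFK27 (YOL136C) encodes a kinase that makes fructose 2,6-bisphosphate, the activator of glycolysis. Its ratios were 1.34, 1.23 and 1.19 in SMG 5 and 0.537, 0.653 and 0.534 in SMG 25, while controls stayed at 0.997, 1.02 and 0.973 in Ctrl 5 and 0.987, 1.05 and 1.15 in Ctrl 25. SMG 5 lay above and SMG 25 below every control array. Both effects were called, 0.33 at 5 generations (adjusted p = 0.027) and -0.89 at 25 generations (adjusted p = 6.0e-05), with an interaction of -1.22 (SE 0.14, adjusted p = 0.012).

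VID24 (YBR105C) is the subunit of the GID ubiquitin ligase that recognizes gluconeogenic enzymes for breakdown. It had ratios of 1.45, 1.67 and 1.51 in SMG 5 against 0.839, 0.682 and 0.857 in Ctrl 5, and 0.918, 1.05 and 0.835 in SMG 25 against 1.13, 1.15 and 0.956 in Ctrl 25. LSMMG and control were apart at 5 generations and overlapped at 25 generations. The effect was 0.96 at 5 and -0.21 at 25 generations (adjusted p = 1.5e-04 and 0.20), and the interaction was -1.17 (SE 0.18, adjusted p = 0.029). UBP11 (YKR098C), a ubiquitin-specific protease, had ratios of 1.45, 1.39 and 1.41 in SMG 5 and 0.999, 0.991 and 0.952 in SMG 25. Controls were 0.728, 0.717 and 0.945 in Ctrl 5 and 1.05, 1.09 and 1.0 in Ctrl 25. At 25 generations LSMMG lay just below control. The effect of 0.84 at 5 generations became -0.09 (adjusted p = 0.52), an interaction of -0.94 (SE 0.15, adjusted p = 0.042).

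In FET4, VPS41, ANB1 and PRM1 the LSMMG effect at 5 generations was below 0, and at 25 generations LSMMG cells were higher than their controls. FET4 (YMR319C), the low-affinity iron transporter, had ratios of 0.855, 0.785 and 0.814 in SMG 5 and 1.25, 1.29 and 1.5 in SMG 25, against 1.08, 1.08 and 1.11 in Ctrl 5 and 0.884, 0.736 and 0.933 in Ctrl 25. LSMMG lay below control at 5 generations and above it at 25, without overlap at either time. The effects were -0.41 and 0.67 (adjusted p = 0.011 and 4.5e-04), with an interaction of 1.08 (SE 0.15, adjusted p = 0.025). For VPS41 (YDR080W), a subunit of the HOPS complex that tethers membranes at the vacuole, the ratios were 1.03, 0.916 and 0.927 in SMG 5 and 1.46, 1.51 and 1.53 in SMG 25. The controls were 0.996, 1.14 and 1.0 in Ctrl 5 and 0.801, 0.920 and 0.889 in Ctrl 25. The SMG 25 arrays stood above all others, and the groups at 5 generations overlapped. The interaction was 0.91 (SE 0.13, adjusted p = 0.025), from effects of -0.13 (adjusted p = 0.33) and 0.79 (adjusted p = 6.7e-05).

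ANB1 (YJR047C) encodes the form of translation factor eIF5A that yeast makes when oxygen is scarce. Its ratios were 1.05, 0.938 and 0.934 in SMG 5 and 1.57, 1.59 and 1.74 in SMG 25, against 1.28, 1.08 and 0.744 in Ctrl 5 and 0.594, 0.431 and 0.619 in Ctrl 25. At 5 generations LSMMG lay within the control range, and at 25 generations far above it, with controls at their lowest. The effect went from -0.05 (adjusted p = 0.87) to 1.59 (adjusted p = 7.4e-05), and the interaction of 1.64 (SE 0.27, adjusted p = 0.042) was the largest of the positive ones. ANB1 has a close paralog, HYP2, which encodes the form made in air and could share probes with it. HYP2 had an interaction of 0.06 (SE 0.13, adjusted p = 0.86).

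PRM1 (YNL279W), a membrane protein of cell fusion during mating, had ratios of 1.04, 0.950 and 0.881 in SMG 5 and 1.24, 1.54 and 1.5 in SMG 25, against 1.15, 1.21 and 0.817 in Ctrl 5 and 0.568, 0.597 and 0.50 in Ctrl 25. Its groups at 5 generations overlapped, and at 25 generations LSMMG exceeded control by 1.36 (adjusted p = 5.4e-05). The interaction was 1.49 (SE 0.22, adjusted p = 0.025), with a difference between the times of -0.91 in controls (adjusted p = 0.053) and 0.57 in LSMMG (adjusted p = 0.084). The remaining called probe set carries no gene name and could belong to either yeast on the array. Its ratios were 1.10, 0.968 and 1.08 in SMG 5, 0.932, 0.914 and 0.761 in SMG 25, 0.926, 0.922 and 1.02 in Ctrl 5 and 1.46, 1.78 and 1.53 in Ctrl 25. Only Ctrl 25 stood apart, and the interaction was -1.0 (SE 0.16, adjusted p = 0.036).

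**Figure D3:**
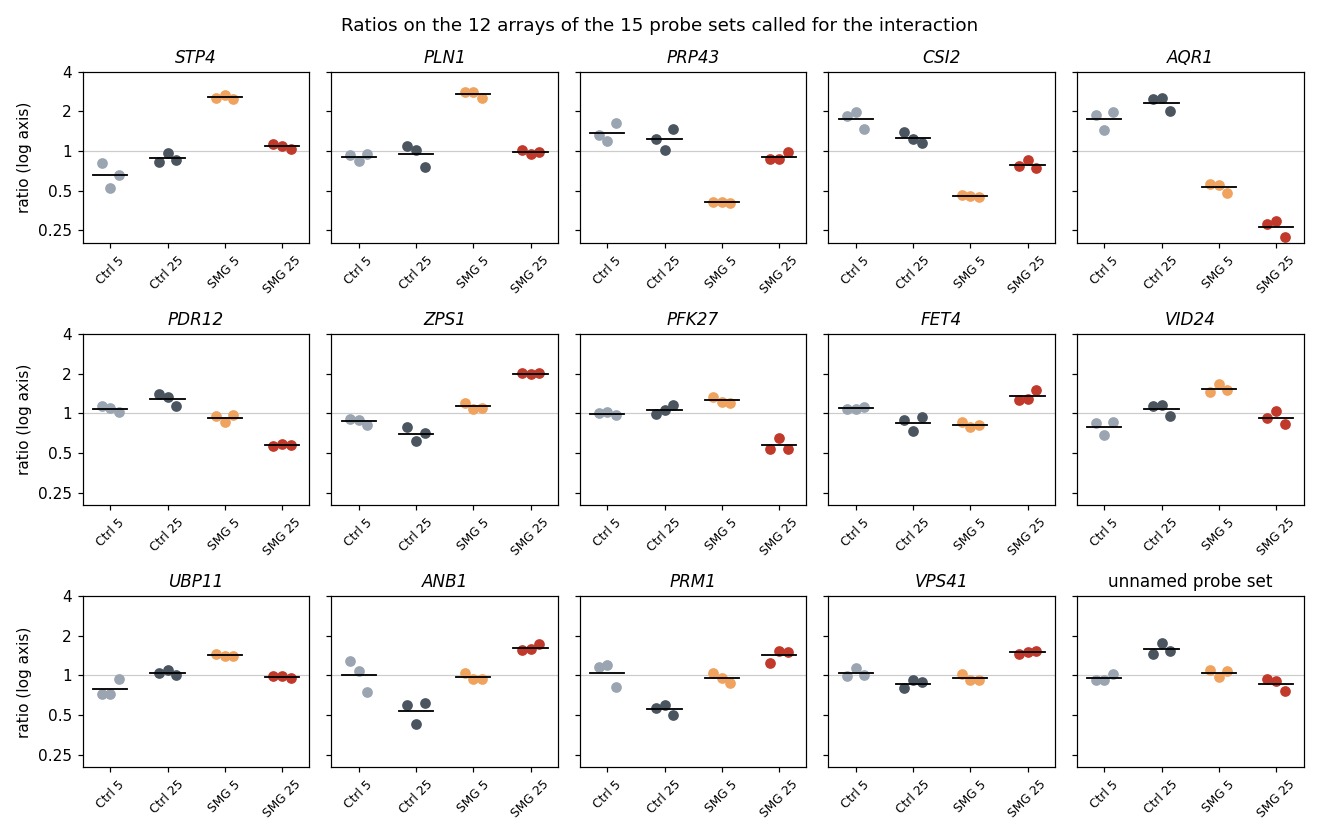
Ratios (log axis) of the 15 called probe sets in Ctrl 5, Ctrl 25, SMG 5 and SMG 25, a point for each of 3 arrays and a line at their geometric mean. STP4, PLN1, PRP43 and CSI2 stand out at SMG 5, ZPS1, VPS41 and AQR1 at SMG 25, and the unnamed probe set at Ctrl 25.

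LSMMG arrays moved more between generations than control arrays in 12 of the 15, and control arrays moved more in 3, namely ANB1, PRM1 and the unnamed probe set. Over the 5449 named genes, and with all 12 arrays, the controls moved more. The change from 5 to 25 generations had an SD of 0.305 in LSMMG and 0.462 in controls, and it reached 2-fold for 43 genes in LSMMG and 291 in controls. This rested on Ctrl 5 replicates 1 and 2. The median absolute change in controls was 0.311 and 0.388 on the log2 scale when taken from each of these arrays and 0.161 from Ctrl 5 replicate 3. In LSMMG it was 0.172, but between group means, which carry less noise than a single array, so these sizes are not directly comparable. The interaction had a median of 0.11 over these genes and was positive for 62.6% of them.

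LYS9, TIR3 and CLG1 came next by p on the positive side and did not pass. LYS9, the saccharopine dehydrogenase of lysine synthesis, had ratios of 0.784, 0.741 and 0.867 in SMG 5 and 1.68, 1.70 and 1.97 in SMG 25, with controls from 0.927 to 1.28. Its SMG 25 arrays stood above all others, and its interaction was 1.10 (SE 0.19, adjusted p = 0.053). TIR3, a cell wall mannoprotein of anaerobic growth, had ratios of 1.13, 1.01 and 0.986 in SMG 5 and 1.78, 1.70 and 2.28 in SMG 25, with an interaction of 1.29 (SE 0.23, adjusted p = 0.053). CLG1, a cyclin-like partner of the kinase Pho85, had 0.857, 0.707 and 0.698 in SMG 5 and 1.67, 1.52 and 1.35 in SMG 25, with an interaction of 1.17 (SE 0.20, adjusted p = 0.053). For these 3 genes the LSMMG arrays moved more than the controls, by 1.16, 0.87 and 1.01 (adjusted p = 0.0059, 0.022 and 0.0098). The controls of LYS9, TIR3 and CLG1 changed by 0.06, -0.42 and -0.17 (adjusted p = 0.82, 0.15 and 0.50).

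In HEM3 and TDA10, on the negative side, the control arrays moved. HEM3, the porphobilinogen deaminase of heme synthesis, had ratios of 0.359, 0.186 and 0.166 in Ctrl 5 and 0.902, 0.736 and 1.21 in Ctrl 25, against 1.06, 1.59 and 1.38 in SMG 5 and 1.29, 1.06 and 0.948 in SMG 25. Only Ctrl 5 stood apart, at 5.95-fold below SMG 5, and the interaction was -2.34 (SE 0.40, adjusted p = 0.053). TDA10, an ATP-binding protein, had ratios of 0.143, 0.0933 and 0.119 in Ctrl 5 and 0.312, 0.427 and 0.290 in Ctrl 25, with LSMMG at 1.57 to 2.05 at both times. It was higher in LSMMG by 15.8-fold at 5 and 5.57-fold at 25 generations, and its interaction was -1.5 (SE 0.25, adjusted p = 0.053). In controls HEM3 and TDA10 rose from 5 to 25 generations by 2.06 and 1.54 (adjusted p = 0.036 and 0.028). The uncharacterized gene YKL068W-A had an interaction of -0.82 (SE 0.14, adjusted p = 0.053).

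Genes already known for their response to LSMMG on these arrays mostly had it at both times. HSP30, a heat shock protein of the plasma membrane, had effects of 3.98 and 4.2 at 5 and 25 generations and an interaction of 0.22 with an SE of 1.21 (adjusted p = 0.95). Its ratios of 0.378, 0.385 and 0.0321 in Ctrl 5 show how wide the control spread was. PUT1, the proline oxidase, stood at 4.38, 4.04 and 3.88 in SMG 5 and 1.42, 1.70 and 1.47 in SMG 25. Ctrl 5 ratios of PUT1 were 0.508, 0.586 and 0.0936 and Ctrl 25 ratios 0.143, 0.207 and 0.0981. Mean ratios were lower at 25 generations in both kinds of culture, and the interaction was -0.34 (SE 0.78, adjusted p = 0.87). MTH1, a repressor of hexose transporter genes, and ATO2, a putative ammonium exporter, had interactions of -0.43 (SE 0.69) and 0.27 (SE 0.58), DHR2, a helicase of ribosome assembly, one of -0.26 (SE 0.42), and SDP1, a phosphatase of the kinase Slt2, one of 0.77 (SE 0.62), with adjusted p from 0.58 to 0.87. With standard errors of this size, a 2-fold interaction of HSP30, PUT1, MTH1, ATO2, DHR2 or SDP1 was not detectable on all 12 arrays. Without Ctrl 5 replicate 3 SDP1 and ATO2 passed, at 1.42 and 0.88 (adjusted p = 0.0077 and 0.044), and with Ctrl 5 replicate 3 alone both were negative, at -0.52 and -0.94.

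SUC2 and COP1 differed between SMG 25 and SMG 5, and their interaction did not pass. SUC2, the invertase, had ratios of 2.12, 1.98 and 2.0 in SMG 5 and 1.05, 1.20 and 0.923 in SMG 25, with controls from 0.710 to 1.04 at both times. Its effect was 1.21 at 5 and 0.32 at 25 generations and its interaction -0.89 (SE 0.21, adjusted p = 0.13). COP1, a coat protein of Golgi vesicles, had ratios of 0.436, 0.511 and 0.462 in SMG 5 and 0.979, 1.03 and 1.17 in SMG 25, while controls went from 0.877, 0.700 and 1.14 to 1.27, 1.27 and 1.43. Here LSMMG and control arrays moved the same way, and an LSMMG difference of 1.17 between times left an interaction of 0.60 (SE 0.22, adjusted p = 0.25).

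The largest interactions in size were mostly not called. Of the 5449 named genes, 294 had a difference of differences of at least 2-fold and 11 of these were called. HAC1, the transcription factor of the unfolded protein response, had the most negative value, -2.69 (SE 1.72, adjusted p = 0.48), with ratios of 0.908, 0.0155 and 1.14 in Ctrl 5 and 0.860 to 1.75 on the other arrays. Among its Ctrl 5 ratios, replicate 2 alone was low. DHH1, a helicase of mRNA decapping, had -2.06 (SE 0.55, adjusted p = 0.15), with Ctrl 5 ratios of 0.936, 0.235 and 0.310. At the positive end stood YFL067W at 2.76 (SE 1.09, adjusted p = 0.27), with ratios of 6.06, 0.568 and 0.983 in SMG 5, and MAM1, a protein of meiotic kinetochores, at 2.34 (SE 0.74, adjusted p = 0.20), with Ctrl 5 ratios of 1.29, 1.73 and 0.393. These 4 genes were chosen after their values were seen. In each of them the arrays of at least 1 group differed by 2-fold or more.

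Of the 10 probe sets called at both times with opposite signs, PFK27 and FET4 passed the interaction test. Among the other 8, BDH1, the butanediol dehydrogenase, had ratios of 0.470, 0.410 and 0.880 in Ctrl 5, 1.31, 1.39 and 1.35 in Ctrl 25, 1.06, 1.17 and 1.09 in SMG 5 and 0.885, 0.937 and 0.855 in SMG 25. LSMMG lay above control at 5 and below it at 25 generations, with effects of 1.0 and -0.60 and an interaction of -1.60 (SE 0.31, adjusted p = 0.091). CNE1, the calnexin of the endoplasmic reticulum, had effects of -0.31 and 0.29 and an interaction of 0.60 (SE 0.14, adjusted p = 0.13). BDH1 and CNE1 were also chosen after their values were seen.

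Over 59 lists of genes by function, as filled here with earlier results known, PDR12 and AQR1 were the only pair of called genes in a list. Such a pair depends on how the lists were filled, and FET4, for example, was placed in the iron list alone. STP4, PRP43, CSI2, UBP11, VPS41 and PRM1 were called and stood in none of the lists. Of all probe sets tested, 0.0781% were called as positive and 0.0892% as negative. In the group for weak acid and membrane stress, with 22 genes, PDR12 and AQR1 were called, both negative, and none was called positive. Its median interaction was -0.21 against 0.11 over all named genes, with 13 members negative and 9 positive. PMP2, a small regulator of the plasma membrane proton pump and the member with the next smallest p, had -0.83 (adjusted p = 0.13). Among 16 zinc-responsive genes ZPS1 was called, and the median was 0.31. ADH4, a zinc-regulated alcohol dehydrogenase, had 0.83 (adjusted p = 0.14). Of 30 genes of iron uptake and its regulation FET4 was called, with a median of 0.16. In this list 19 members were positive and 11 negative, down to -0.79, beside 62.6% positive over all named genes. At an unadjusted p under 0.05 by limma, 10 were positive and 2 negative, where 14.0% and 5.34% of all named genes were. ARN2, a siderophore transporter, had 0.96 (adjusted p = 0.13) and HMX1, the heme oxygenase, 1.33 (adjusted p = 0.13). PLN1 was the single called gene among 20 genes of lipid droplets and triacylglycerol (median -0.07), and PFK27 among 30 genes of glycolysis and fermentation (median 0.01). Members named here by p alone were chosen after their values were seen.

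Genes that respond to oxygen leaned to positive values. Of 25 hypoxic and anaerobic genes 23 had a positive interaction, 1 was called (ANB1) and the median was 0.63, beside 62.6% positive and a median of 0.11 over all named genes. LSMMG effects in this list had a median of 0.23 at 5 and 0.88 at 25 generations, LSMMG arrays changed by a median of 0.20 and control arrays by -0.50. PAU24, of the seripauperin family of cell wall proteins, had ratios of 0.538, 0.667 and 0.531 in Ctrl 5, 0.292, 0.337 and 0.267 in Ctrl 25, 1.37, 1.43 and 1.51 in SMG 5 and 1.82, 1.98 and 1.35 in SMG 25, with an interaction of 1.19 (adjusted p = 0.062). LSMMG and control arrays of PAU24 were apart at both times.

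The highest median belonged to meiosis and sporulation. All but 1 of its 46 genes had a positive interaction, none was called by limma, 19 reached an unadjusted p under 0.05 as positive and 1 as negative, and the median was 1.01. Over all named genes 14.0% reached that p as positive and 5.34% as negative, and 62.6% were positive. The median member stood in Ctrl 5 at log2 ratios of -0.08, 0.39 and -0.80, in Ctrl 25 at -1.15, -1.06 and -1.21, in SMG 5 at 0.54, -0.12 and 0.26 and in SMG 25 at 0.25, 0.31 and 0.13. The median change between the times was -0.94 in controls and 0.07 in LSMMG, and Ctrl 5 replicate 3 lay closer to Ctrl 25 than to the other Ctrl 5 arrays. IME1, the master activator of meiosis, had ratios of 0.781, 0.904 and 0.856 in Ctrl 5 and 0.528, 0.525 and 0.554 in Ctrl 25, with LSMMG between 1.11 and 1.29 at both times, and an interaction of 0.56 (adjusted p = 0.13). IME2, the kinase that Ime1 induces, had 0.857, 1.13 and 0.517 in Ctrl 5 and 0.454, 0.371 and 0.353 in Ctrl 25, and an interaction of 1.27 (adjusted p = 0.14).

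Stationary phase genes, mating genes and genes of the glyoxylate cycle showed the same arrangement of arrays. The 18 stationary phase genes had a median interaction of 0.75, with log2 ratios of -0.38, -0.42 and -2.46 in Ctrl 5 and -1.84, -1.72 and -2.73 in Ctrl 25, and 0.42 to 0.63 in LSMMG. SNO4, a chaperone-like protein of stationary phase, had ratios of 0.774, 0.859 and 0.185 in Ctrl 5, 0.128, 0.139 and 0.0728 in Ctrl 25 and 1.16 to 1.70 in LSMMG, with an interaction of 1.87 (adjusted p = 0.24). Of 28 mating and haploid-specific genes 25 were positive, the median was 0.62 and none was called. PRM1, which was called as positive, was counted outside this list. AGA1, an anchor of the mating agglutinin, had 1.14 (adjusted p = 0.13), and STE18, the G protein gamma subunit of pheromone signaling, ran against its list with -1.45 (adjusted p = 0.17) from SMG 5 ratios of 4.31, 5.03 and 4.46 and SMG 25 ratios of 1.57, 1.42 and 0.944. The 25 genes of the glyoxylate cycle and gluconeogenesis had a median of 0.62, with VID24 called as negative and 18 members positive.

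**Figure D4:**
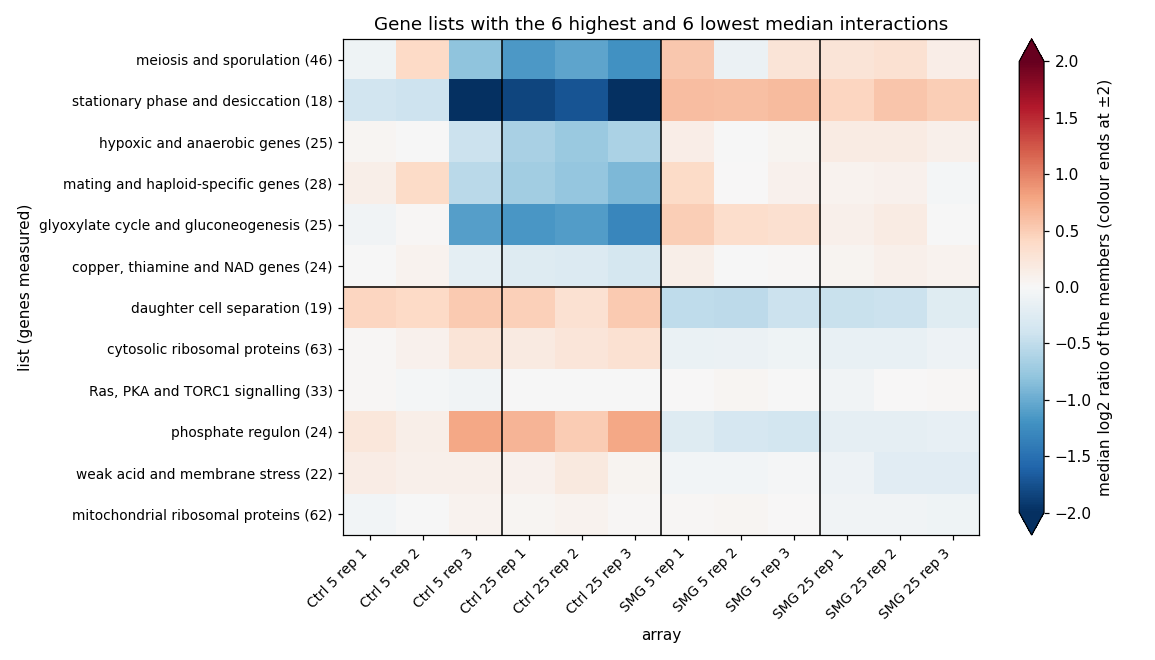
Median log2 ratio of the members (colour) of the 6 gene lists with the highest and the 6 with the lowest median interaction, on each of the 12 arrays, with the number of genes measured in parentheses. In the upper lists Ctrl 5 replicates 1 and 2 resemble the LSMMG arrays more than Ctrl 5 replicate 3 does, for example at -0.38 and -0.42 against -2.46 in the stationary phase list.

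Lists at the lower end had medians near 0 or below it. Mitochondrial ribosomal proteins had a median interaction of -0.24 with 51 of 62 negative, and cytosolic ribosomal proteins -0.16 with 57 of 63 negative. None was called in either list by limma, and 16 and 6 had a negative value at an unadjusted p under 0.05, where 5.34% of all named genes did. With Ctrl 5 replicate 3 alone the median of the cytosolic ribosomal proteins was 0.01, with 32 of 63 positive, and that of the mitochondrial ones -0.12. The 66 ribosome assembly factors, with PRP43 counted outside them, had effects of -1.38 and -1.40 at the 2 times and a median interaction of 0.00. That median moved with the control arrays, to 0.21 (54 of 66 positive) with Ctrl 5 replicate 3 alone and to -0.28 (8 of 66 positive) without Ctrl 25 replicates 1 and 2.

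Single genes of other lists came near the threshold. Among 45 genes of G1 and S phase the median was 0.27, and 17 were positive at an unadjusted p under 0.05, beside 14.0% of all named genes. MCD1, a cohesin subunit, had ratios of 0.351, 0.395 and 0.372 in SMG 5 and 0.660, 0.649 and 0.554 in SMG 25 with controls from 1.34 to 1.96, and an interaction of 0.94 (adjusted p = 0.11). Of 24 hexose transporters and glucose sensors, HXT7 had -1.05 (adjusted p = 0.057) from SMG 5 ratios of 1.52, 1.79 and 1.60 and SMG 25 ratios of 0.942, 0.985 and 0.759. HXT7 and HXT6 are nearly identical and may share this probe set. Of 24 genes of copper, thiamine and NAD, PHO3, the thiamine-repressed acid phosphatase, had effects of -2.73 and -1.71 and an interaction of 1.02 (adjusted p = 0.070).

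How many genes were called depended on Ctrl 5 replicate 3. Without it 1682 probe sets (18.8%) passed the interaction test, 1181 positive (13.2%) and 501 negative (5.59%), and all 15 of those called on 12 arrays were among them. By class, the effect grew in 925, shrank in 153 and turned in 604. In this setting 29 of 46 genes of meiosis and sporulation, 12 of 18 of stationary phase, 15 of 25 hypoxic, 15 of 28 mating and 15 of 40 general stress genes were called as positive. Of the 62 mitochondrial ribosomal proteins, 22 were called as negative. Control arrays of the same 2 times then differed for 2846 probe sets.

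The reverse choice, Ctrl 5 replicate 3 alone against the other groups, gave 46 calls, 14 positive and 32 negative, 10 of them among the 15. In this fit the lone array was assumed to vary like the arrays of the other groups, so its count cannot be set beside those with replicates. The median of meiosis and sporulation was then 0.24, that of stationary phase -0.64 and that of the glyoxylate list -0.17, where it had been 1.35, 1.15 and 0.98 with Ctrl 5 replicates 1 and 2. The median of mating genes was 0.02 (15 of 28 positive) against 0.90. That of general stress genes was -0.83 (0 of 40 positive) against 0.73. Hypoxic genes kept a median of 0.45 against 1.06, and weak acid genes one of -0.35 against -0.11. Taken singly against the means of the other groups, Ctrl 5 replicates 1, 2 and 3 gave a difference of at least 2-fold for 530, 801 and 162 named genes. Whether Ctrl 5 replicate 3 or replicates 1 and 2 represent cultures of 5 generations was not tested. The labels give nothing to settle it, and the control array that the study set aside is not named. Nor was it tested whether Ctrl 25 replicate 3 represents 25 generations, as the study's legend names more control arrays at 5 than at 25. That array correlated at 0.95 with Ctrl 5 replicate 3 and at 0.91 and 0.89 with Ctrl 25 replicates 1 and 2. Its rRNA median was 2.43, against 97.1 and 96.2 on those replicates.

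Without Ctrl 25 replicates 1 and 2, whose rRNA signal was high, the medians of meiosis and sporulation, stationary phase, the glyoxylate list, mating and hypoxic genes were 1.09, 0.99, 0.74, 0.53 and 0.65. General stress genes went from 0.16 to 0.71 and subunits of RNA polymerases I and III from 0.05 to -0.23. The single Ctrl 25 array that was left was assumed to vary like the other groups. In that fit 1 probe set was called and none of the 15 was, while STP4 stood at -1.62, PFK27 at -1.34 and ZPS1 at 1.13. The part of the rRNA signal in the interaction was not tested.

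**Figure D5:**
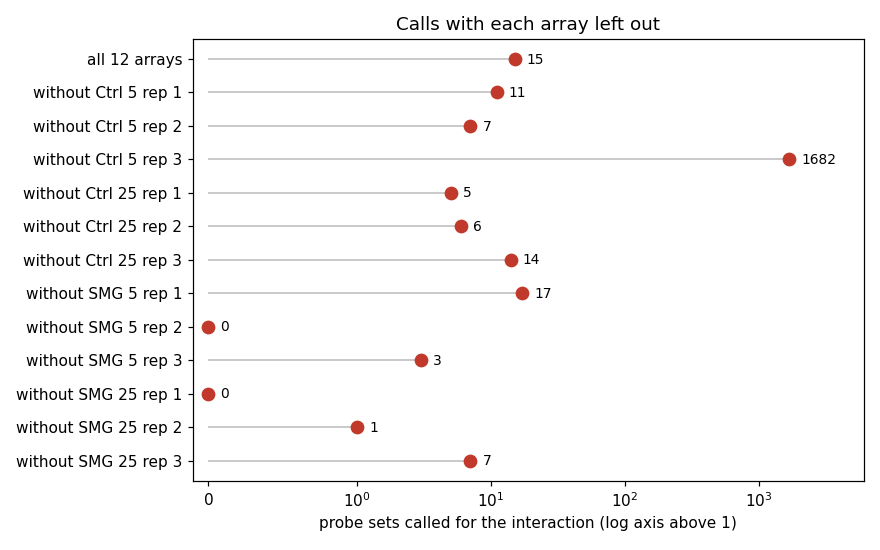
Number of probe sets called for the interaction with all 12 arrays and with each array left out in turn (log axis above 1). The number was 15 with all arrays, 1682 without Ctrl 5 replicate 3 and 0 to 17 without any other array.

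None of the 15 changed sign in any of the alternatives run, leaving out of single arrays included. They were selected on these same arrays for a large interaction, so the kept signs lend them no support. With 1 array left out, STP4 stayed between -1.81 and -1.5, PLN1 between -1.68 and -1.41, PFK27 between -1.32 and -1.16 and ZPS1 between 1.05 and 1.23. PFK27 kept its call without 10 of the 12 arrays, STP4 and PLN1 without 9 each, ZPS1 without 8 and CSI2 without 7, and the other 10 without 1 to 4. Every call ended without SMG 5 replicate 2 or SMG 25 replicate 1, where the adjusted p of PFK27 reached at most 0.065. With the replicate number as a block within each kind of HARV none of the 15 passed (adjusted p from 0.075 to 0.10). Of the 1746 S. pombe probe sets, whose targets these cells lack, the median interaction was -0.07, none reached 2-fold, and 1 was called when they were kept in the test.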

How the data were processed

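RNA of 12 samples was hybridized to Affymetrix Yeast Genome 2.0 arrays. The authors applied RMA and GeneSpring, and the values as deposited are linear ratios, with a median of 1 on each array and each probe set scaled to its own typical level. How that scaling was set is not given in the sources used here. Ratios ran from 0.01 (2 values) to 205.8. No filter on low signal was possible, and precision is limited by the number of arrays.

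Of 10928 probe sets, 1746 for S. pombe, 166 array controls, 47 reporters and 1 with several gene symbols were left out. The other 8968 comprise 5498 with 1 gene, covering 5449 genes, and 3470 unnamed. For the 47 genes with several probe sets, the one without a suffix letter was taken. Log2 ratios of all 12 arrays were fitted to 4 groups with limma 3.58.1 in R 4.3.3, and the interaction was tested two-sided with Benjamini-Hochberg adjustment over all 8968 at 0.05. The plan had allowed for intensities or ratios. The steps were tested on simulated data, and matplotlib 3.10.9 drew the figures.

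An effect turned where its fitted sign differed between the times, and otherwise grew or shrank by its size. The rule for naming took all called genes, the 10 with the smallest p in a direction where fewer were called, and PLN1, SUC2, COP1, PUT1, MTH1, ATO2, AQR1, DHR2, HSP30 and SDP1. The members, the 59 gene lists and the alternatives were chosen with earlier results of these data known. Lists were described by counts and medians, with no test. Alternatives were other scalings, a floor of 0.1, another prior, array weights, other sets of probe sets, a Welch test, replicate blocks and leaving out arrays.

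Replicate numbers were not used to pair arrays in the main fit. Of 18 same-numbered pairs from different groups, 5 had deviations from the group means that correlated above 0.1. Most of the 18 join LSMMG with control, whereas serial dilution could link the times within a kind of HARV. Same-numbered pairs of Ctrl 5 and Ctrl 25 stood at 0.103, 0.312 and 0.490. Those of SMG 5 and SMG 25 stood at 0.133, -0.163 and 0.0229. Whether same-numbered arrays share a culture line is not stated, so the 15 calls may ignore a pairing. The calls under a block within each kind of HARV are given with the results.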

Additional observations from a re-analysis of the deposited data

Results flagged for a closer look

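Each of the 15 called probe sets was singled out because the effect of LSMMG differed between 5 and 25 generations by the interaction test itself (limma, adjusted p from 0.012 to 0.042). With 3 arrays a group, single arrays were not tested as outliers. The difference of differences on the log2 scale was negative for STP4 (-1.66), PLN1 (-1.52), AQR1 (-1.41), PFK27 (-1.22), VID24 (-1.17), the probe set without a gene name (-1.0), UBP11 (-0.94) and PDR12 (-0.93). It was positive for ANB1 (1.64), PRM1 (1.49), PRP43 (1.31), CSI2 (1.28), ZPS1 (1.14), FET4 (1.08) and VPS41 (0.91).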

How the results depend on the processing

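The 15 called probe sets kept their sign in every alternative run, which lends them no support as they were selected on the same arrays. Their number did not keep. With 1 array left out it ran from 0 to 1682, the calls at 5 generations from 2383 to 3316, those at 25 generations from 3450 to 4579, those between generations from 6 to 663 in LSMMG and from 0 to 2846 in controls. Left out singly, Ctrl 5 replicates 1, 2 and 3 gave 11, 7 and 1682 interaction calls, Ctrl 25 replicates 5, 6 and 14, SMG 5 replicates 17, 0 and 3, and SMG 25 replicates 0, 1 and 7. At an unadjusted p under 0.05, 995 and 1036 probe sets passed where limma called 0.

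With the replicate block, 9 probe sets were called for the interaction, 8 of them among the 15, and 122 and 0 between generations in LSMMG and controls. With the replicate block within each kind of HARV, limma called 0 for the interaction (1612 at an unadjusted p under 0.05), 1816 at 5 generations, and 84 and 0 between generations. The methods' test called 0 (823 unadjusted), 308 at 5 generations, and 13 and 0 between generations. Quantile normalization gave 202, and 1002 between generations in LSMMG. Array weights gave 1780, with 1552 and 2370 between generations, and a weight of 0.13 for Ctrl 5 replicate 3. Testing named probe sets alone gave 30 calls between generations in controls. With a 2-fold minimum, 995 and 1558 remained for LSMMG at 5 and 25 generations. Ctrl 5 without its replicates 1 and 2, an arm of 1 array assumed to vary like the others, gave 46, and 683 between generations in LSMMG. In 2 alternatives chosen after seeing the data, Ctrl 25 without its replicates 1 and 2 gave 1, with 123 and 1 between generations, and both control groups without replicate 3 gave 1689, with 992 and 2787. The cause of these differences was not tested.

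Among genes that did not pass, some turned sign. HSP30 gave -0.04 with quantile normalization and -2.16 for Ctrl 5 without replicates 1 and 2, where SDP1 gave -0.52, DHR2 0.17 and ATO2 -0.94. ATO2 gave -0.10 with quantile normalization. PUT1 and MTH1 gave 0.33 and 0.34 with array weights and 0.24 and 0.20 without both control replicates 3, and PUT1 gave 0.20 for Ctrl 25 without replicates 1 and 2. With 1 array left out HSP30 ran from -0.50 to 1.41, PUT1 from -0.81 to 0.51, MTH1 from -0.82 to 0.31, DHR2 from -0.54 to 0.01, ATO2 from -0.05 to 0.88 and SDP1 from 0.44 to 1.42. A search of promoters for motifs was planned and not run, since no promoter sequences were used here.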
